A study of Mus musculus with 40 samples.

Results

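The ratio of ribosome footprints to mRNA was followed gene by gene in the endoplasmic reticulum (ER) fraction of untreated mouse embryonic fibroblasts. A gene was taken when both libraries of ER footprints and both libraries of ER mRNA listed a value for it, which held for 2165 of the 22417 genes of the deposited table. The log2 ratio of footprints to mRNA was set relative to the median of these 2165 genes, so a value of 0 is the ratio of the median gene and not an equal amount of both. The ratio is called basal here because it comes from cells without thapsigargin.

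The cells were GADD34-/- embryonic fibroblasts, and every library of the series, controls included, came from this genotype. Wild-type cells are not analysed here, and the labels leave unsaid how much of the gene the deletion removes. All cells had cycloheximide before lysis, digitonin released the cytosol, and dodecyl maltoside extracted the rest, which the labels call ER. The ER label thus stands for what digitonin left behind. The libraries used were untreated ER footprints and untreated ER mRNA, with 2 of each. Untreated cytosol footprints and mRNA, 2 of each, and ER libraries after 1, 2 and 4 h of 1 uM thapsigargin, which empties the calcium store of the ER, served for the comparisons given further on. Whether replicates 1 and 2 are separate cultures is not given in the labels, and the p-values reflect only how far these particular libraries differ, which may be technical.

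A ribosome on an mRNA shields a short stretch of it from nuclease, and the shielded pieces, sequenced, give the footprints of translating ribosomes. Footprints divided by mRNA are a relative measure of how many ribosomes an average copy of an mRNA carries. Proteins destined for secretion, for membranes or for the inside of the ER, Golgi and lysosomes are mostly made by ribosomes docked on the ER, while the mRNAs of many cytosolic proteins are also found in ER fractions.

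Depth differed widely between the libraries. The whole numbers of reads recovered from the RPKM values (reads per length of coding sequence and per size of the library) came to 9604852 and 396445 in footprints 1 and 2, and to 162032 and 64804 in mRNA 1 and 2. The members took 70.6% and 70.4% of the footprint reads and 49.4% and 29.7% of the mRNA reads. The 10 largest loci held 8.46% and 13.996% of the footprint RPKM and 51.9% and 74.6% of the mRNA RPKM. C330021F23Rik, LOC101055971 and Gm5148 led both mRNA libraries and had no listed footprints, so they are not members. The median member had 918 and 36 reads in footprints 1 and 2, and 13 and 3 reads in mRNA 1 and 2. In mRNA 2, 597 members rested on 1 read and 1243 on 1 to 3 reads, and 274 members had at least 10 reads in each of the 4 libraries.

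Ppp1r15a, the gene of GADD34, is not a member: footprints 2 listed it at 2.89 RPKM from 5 reads, and the other 3 libraries did not list it. Of 12 fibroblast markers 10 were listed, with summed levels of 11631 and 11286 RPKM in footprints and 1021 and 925 RPKM in mRNA. Thy1 and Fap were not listed. Of the other marker lists, 3 of 10 macrophage, 3 of 8 epithelial, 4 of 8 endothelial and 5 of 10 muscle and neural genes were listed in at least 1 library. Their summed footprint levels were 4.39 and 21.8, 20.4 and 18.8, 0.34 and 0, and 230.3 and 362.0 RPKM. The last pair includes the intermediate filament gene Nes, a member with 70.4 and 108.5 RPKM in footprints. Fewer cells of a type and less RNA per cell cannot be told apart in such bulk samples.

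The members leave out many genes with footprints. The least a library listed was 4 reads in both footprint libraries and in mRNA 1, and 1 read in mRNA 2. Of 7869 genes listed in both footprint libraries, 1491 were in mRNA 1 but not mRNA 2, 1355 were in mRNA 2 but not mRNA 1, and 2858 were in neither. The median footprint level was 27.3 RPKM for members and 8.01 RPKM for genes listed in neither mRNA library. Of the genes listed in neither, 75 averaged at least 100 RPKM of footprints, led by the chemokine gene Cxcl12 with 1219 and 734 RPKM and by Kdelr2, a receptor that returns ER proteins from the Golgi, with 386 and 556 RPKM. A gene with many footprints and little mRNA could therefore drop out of the comparison, and the values below describe only what was listed in all 4 libraries.

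Ratios spread over a wide range. The 10th and 90th percentiles lay at -2.16 and 1.88 on the log2 scale, a 16.4-fold span, and the lowest and highest genes at -8.51 and 5.21. For comparison, the log2 standard deviation between replicates was 0.45 in footprints and 1.13 in mRNA, so most of the replicate error of a ratio came from the mRNA side. Across the 2165 genes, Pearson's r was 0.96 between the footprint libraries, 0.69 between the mRNA libraries and 0.69 between mean footprints and mean mRNA. These are descriptions across genes that share libraries, and genes are not independent replicates.

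The test asked which genes carried more or fewer footprints per mRNA than the median gene. With limma and Benjamini-Hochberg adjustment over all 2165 genes at a threshold of 0.05, 37 genes were higher, which is 1.71% of those tested, and 103 were lower, which is 4.76%. Genes past the test in either direction made up 6.47%. Without any reference to a test, both footprint values lay above both mRNA values, each library centred on its median, in 31.8% of genes, and below them in 29.6%. The calls lay close to the threshold: the fit made 21 calls without footprints 1, 47 without footprints 2, of which 39 were among the 140, and 7 without the members whose locus overlaps another gene, described below. Leaving out mRNA 1 or mRNA 2 gave 1132 or 1053 calls, with the lone mRNA library assumed to vary like the footprints.

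**Figure D1:**
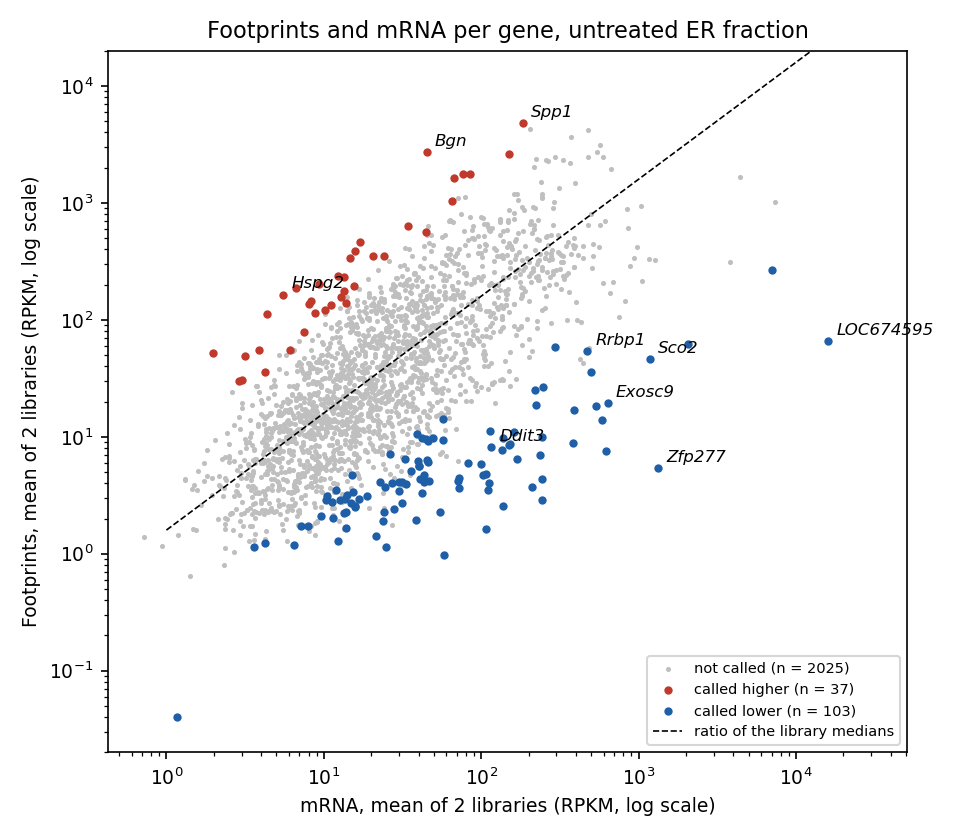
Each point is 1 of the 2165 genes, with mean mRNA on the x axis and mean footprints on the y axis, both in RPKM on log scales over 2 libraries. The 37 genes called higher form the upper edge of the cloud and the 103 called lower lie under it, and the dashed line marks the ratio of the library medians.

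Extracellular matrix and secreted proteins had the highest median of the functional lists; the 8 members among the fibroblast markers, 1 of them higher in the test, had one of 2.68. Of the 50 genes of this list, 48 had footprints in both libraries and 41 were members, with a median ratio of 2.33 and quartiles of 1.63 and 3.42. Of these 41, 8 were higher and 0 lower in the test, 40 lay above the median gene, and 38 had both footprint values above both mRNA values. The ratio formed from replicate 1 alone had a median of 2.07 and that from replicate 2 alone 2.86. Among the 20 members with at least 10 reads in each library the median was 2.18, against -0.20 over all 274 such genes.

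Spp1, which encodes the secreted phosphoprotein osteopontin, had 3635 and 6031 RPKM in footprints and 222 and 144 RPKM in mRNA. All its footprint values exceeded all its mRNA values, and the ratio was 4.01 (SE 0.81, limma adjusted p = 0.044). Col1a2, a chain of type I collagen, had 2330 and 2899 RPKM in footprints and 191 and 108 RPKM in mRNA, a ratio of 3.47 (SE 0.76, limma adjusted p = 0.0496). Lox, the lysyl oxidase that crosslinks collagen and elastin, had 985 and 1086 RPKM in footprints and 72.1 and 57.4 RPKM in mRNA, a ratio of 3.31 (SE 0.72, limma adjusted p = 0.049). In Col1a2 and Lox, too, footprints and mRNA did not overlap. The partner chain Col1a1 had a similar ratio, 4.03, but did not pass (SE 1.16, limma adjusted p = 0.088): its footprints were 3343 and 5202 RPKM, and its mRNA values, 73.0 and 338 RPKM, lay far apart. It passed when the fit was limited to the 274 genes with at least 10 reads in each library (limma adjusted p = 0.021). Centred on the median of these genes, its ratio was 4.23. It also passed with the replicate block (limma adjusted p = 0.0018), a fit described below and not the one used.

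The other matrix genes past the test had fewer than 10 reads in mRNA 2, and were chosen for naming after their values were seen. Bgn, the small proteoglycan biglycan, had the highest ratio of all members at 5.21 (SE 0.80, limma adjusted p = 0.023), with 2344 and 3064 RPKM in footprints and 38.9 and 51.1 RPKM in mRNA. Hspg2, the basement membrane proteoglycan perlecan, had 144 and 185 RPKM in footprints and 8.82 and 2.16 RPKM in mRNA, a ratio of 4.52. Timp1, which inhibits metalloproteases, stood at 3.67 and the basement membrane linker Nid1 at 3.02. At the low end, Igfbp7, which binds insulin-like growth factors, had a ratio of -0.06 (SE 1.60, limma adjusted p = 0.98), with 110 and 380 RPKM in footprints and 31.5 and 542 RPKM in mRNA. Its groups overlapped, and both libraries of replicate 2 had the larger values. Loxl1, a relative of Lox, stood at 1.20, with 122 and 137 RPKM in footprints and 22.2 and 54.4 RPKM in mRNA.

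**Figure D2:**
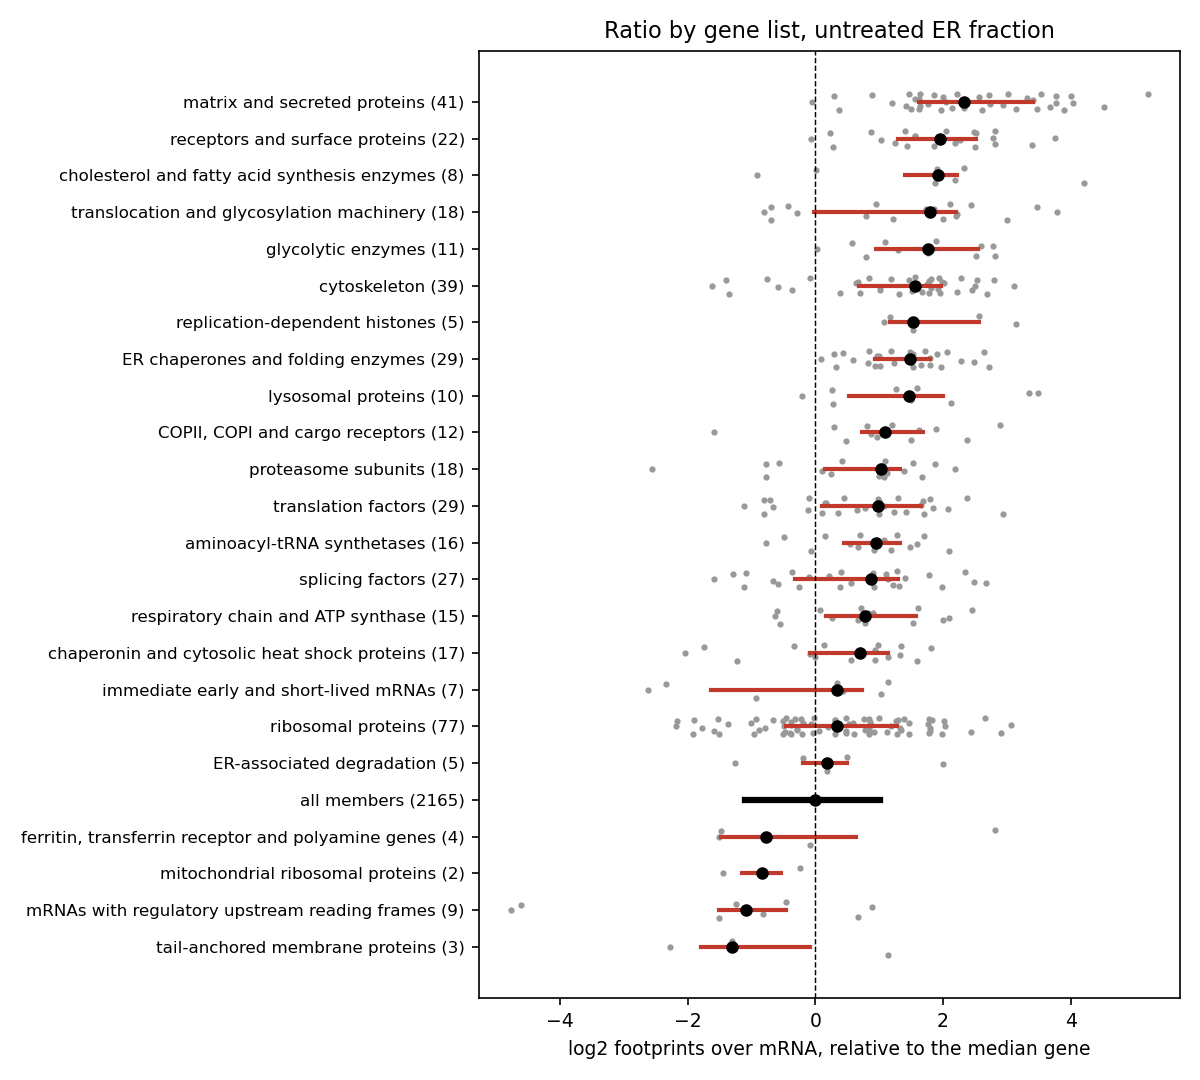
The x axis gives the log2 ratio of footprints to mRNA relative to the median gene, and each row is a gene list with its number of members. Grey points are genes, coloured bars run from the lower to the upper quartile, black dots are medians and the black bar shows all 2165 genes; matrix and secreted proteins have the highest median at 2.33 and tail-anchored proteins the lowest at -1.31.

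Cell surface receptors followed, with a median of 1.95 in 22 members of 48 listed genes, of which 1 was higher and 0 lower. Footprints were listed in both libraries for 47 of the 48. Lrp1, a large endocytic receptor of lipoproteins and proteases, had 93.5 and 195 RPKM in footprints and 10.9 and 5.72 RPKM in mRNA. Its values did not overlap, and the ratio was 3.40 (SE 0.66, limma adjusted p = 0.040). Cd63, a tetraspanin of late endosomes, had 714 and 808 RPKM in footprints and 79.1 and 119 RPKM in mRNA. Its ratio of 2.27 did not pass (limma adjusted p = 0.13), although the groups were apart. Plxnb2, a semaphorin receptor, had 39.6 and 48.9 RPKM in footprints and 14.2 and 15.4 RPKM in mRNA, a ratio of 0.88. In Itgb1, a common integrin chain, mRNA was 928 and 29.6 RPKM against footprints of 732 and 563 RPKM, and the groups overlapped.

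Chaperones and folding enzymes of the ER stood above the median gene, but none passed the main test, against 6.47% of all members. All 29 members among 38 ER chaperones and folding enzymes had ratios above 0, with a median of 1.48 and a range of 0.09 to 2.72. The main fit called 0 of them in either direction. Higher calls were 1 of 11 with at least 10 reads in each library, 3 with the replicate block and 2 when all ER libraries shared the spread. A pseudocount, trimmed mean centring, robust variances and overlapping loci left out each gave 0. The replicates differed here, with medians of 0.62 from replicate 1 and 2.00 from replicate 2. Pdia3, a disulfide isomerase for glycoproteins, had 929 and 923 RPKM in footprints and 286 and 74.7 RPKM in mRNA, a ratio of 1.96 (SE 0.78, limma adjusted p = 0.16). Fkbp10, a collagen chaperone, had 200.4 and 261 RPKM in footprints and 18.6 and 61.0 RPKM in mRNA, a ratio of 2.06. In both genes footprints and mRNA were apart.

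Hsp90b1, the ER form of HSP90, and Canx, the membrane lectin calnexin, had the lowest ratios of the list under the read minimum, 0.43 and 0.33. Hsp90b1 had 940 and 842 RPKM in footprints and 1596 and 103 RPKM in mRNA. Canx had 434 and 451 RPKM in footprints and 985 and 47.9 RPKM in mRNA. In both, the footprint libraries were close to each other, the mRNA libraries differed by more than the ratio itself, and the groups overlapped.

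The translocation and glycosylation machinery had a median of 1.80 in 18 members of 32 genes, 13 of them above the median gene, with 2 higher and 0 lower. These were Rpn2, a subunit of oligosaccharyltransferase, at 3.78, and Ganab, the glucosidase that trims new N-glycans, at 3.47. Both had fewer than 10 reads in mRNA 2, as did every other member of the list in at least 1 library. Rpn2 had 246 and 429 RPKM in footprints and 14.2 and 14.96 RPKM in mRNA. Vesicle coat proteins and cargo receptors had a median of 1.09 in 12 members with 1 higher, the COPI subunit Copa at 2.89. Lysosomal proteins had a median of 1.47 in 10 members with 1 higher, the saposin precursor Psap at 3.48. Psap had 494 and 778 RPKM in footprints and 34.1 RPKM in each mRNA library. Ctsd, the lysosomal protease cathepsin D, had 351.2 and 264.0 RPKM in footprints and 70.1 and 63.3 RPKM in mRNA, a ratio of 1.49 that did not pass (limma adjusted p = 0.21).

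The ER-associated degradation machinery, which removes misfolded proteins, had 5 members with a median of 0.18 and a range of -1.26 to 2.00, and 0 were called. That median ran from -0.26 to 0.71 when 1 library was left out. Os9, a lectin of this pathway, had 45.9 and 56.0 RPKM in footprints and 27.7 and 45.9 RPKM in mRNA, a ratio of -0.19 with overlapping values. Of the 8 members among enzymes of cholesterol and fatty acid synthesis, 1 was higher, the desaturase Scd2 at 4.20, and the median was 1.93. Scd2 had 326 and 453 RPKM in footprints and 25.1 and 6.59 RPKM in mRNA. Sqle, the epoxidase of sterol synthesis, was at -0.91 with overlapping values.

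Some lists of cytosolic proteins also had high medians. Glycolytic enzymes had a median of 1.77 in 11 members and cytoskeletal proteins 1.56 in 39. The main fit called 0 in either list, against 6.47% of all members. Eno1, a glycolytic enolase, had 798 and 820 RPKM in footprints and 51.7 and 97.8 RPKM in mRNA, a ratio of 2.81 (SE 0.85, limma adjusted p = 0.096). Enolase has near-identical gene copies, so its reads are uncertain. Acta2, smooth muscle actin, had 1877 and 2885 RPKM in footprints and 226 and 219 RPKM in mRNA, a ratio of 2.69 (limma adjusted p = 0.097). Actg1, another actin, stood at 2.53. In these 3 genes the footprint values lay above the mRNA values. Limited to the 274 genes with at least 10 reads in each library, the fit called Eno1 (limma adjusted p = 0.023), Acta2 (0.024), Actg1 (0.030), the glycolytic enzyme gene Ldha (0.035) and Cd63 (0.033) higher. That fit is centred on its own median gene, which raised all ratios, that of Eno1 to 3.01.

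Some cytoskeletal members stood low. Cald1, which binds actin and myosin, had 258 and 158 RPKM in footprints and 1049 and 138 RPKM in mRNA, and Tubb6, a beta tubulin, had 73.7 and 85.8 RPKM in footprints and 92.4 and 169 RPKM in mRNA. Their ratios were -1.61 and -1.35, with both footprint values below both mRNA values after centring, and neither passed. Replication-dependent histones, whose mRNAs lack a poly(A) tail, had a median of 1.53, but only 5 of the 61 with footprints in both libraries were members.

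Lists of general cell machinery had medians between 0.70 and 1.03. Medians were 1.03 in 18 proteasome subunits, 0.98 in 29 translation factors, 0.95 in 16 aminoacyl-tRNA synthetases, 0.87 in 27 splicing factors, 0.77 in 15 subunits of the respiratory chain and ATP synthase, and 0.70 in 17 chaperonin and cytosolic heat shock proteins. None of their genes passed in either direction, against 6.47% of all members. These medians moved with the processing: without mRNA 2 the heat shock and chaperonin list had -0.38 and splicing factors 0.14. The fit limited to at least 10 reads in each library is centred on its own median gene. There, proteasome subunits had -1.37 (2 genes), splicing factors -0.52 (4 genes) and translation factors 0.37 (11 genes). On the scale of the main fit the same genes had medians of -1.57, -0.72 and 0.16. Psmd7, a lid subunit of the proteasome, stood apart from its list at -2.57 (SE 0.66, limma adjusted p = 0.071), with 48.5 and 59.1 RPKM in footprints and 288 and 132 RPKM in mRNA. Eef2 and Eef1a1, the abundant elongation factors, had ratios of 1.85 and 1.65. Naca, a chain of the complex that binds nascent chains, had one of -1.11. Eef2 had 397 and 480 RPKM in footprints and 53.4 and 105 RPKM in mRNA, and Naca had 22.5 and 15.3 RPKM in footprints and 43.6 and 14.04 RPKM in mRNA. Eef2 had footprints above mRNA in every library, while the values of Naca lay below after centring.

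Ribosomal proteins were the list with the most members, 77 of 83 genes, and their median stood near the median gene. Of these genes 0 were called in either direction, against 6.47% of all members. The median ratio of the list was 0.33, with quartiles of -0.46 and 1.28. It was -0.38 in the 43 with at least 10 reads in each library, and 0.76 from replicate 1 against -0.03 from replicate 2. Rps9 had 722 and 664 RPKM in footprints and 92.4 and 170 RPKM in mRNA, the highest ratio under the read minimum at 1.77, and Rps19 followed at 1.38. Rps2 had 112 and 88.1 RPKM in footprints and 135 and 571 RPKM in mRNA, the lowest at -2.18. Rpl11 was next at -2.17, with 321 and 356 RPKM in footprints and 1022 and 859 RPKM in mRNA. The footprint values lay above the mRNA values in Rps9 and Rps19 and below them in Rps2 and Rpl11. Ribosomal protein genes have many processed copies, so their read counts are uncertain.

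The mRNAs of ribosomal proteins are known for a run of pyrimidines at their 5′ end, through which cells adjust their translation. The bases around the transcript start from RefSeq (GRCm38.p6) are shown for 7 ribosomal protein genes, because they let start and ratio be compared. All have at least 10 reads in each library, and genes of a single chromosome were left out of the choice. Among the rest, Rpl35 and Rpl28 were the highest and Rpl14 the lowest with a pyrimidine start as defined below. Rps9 and Rps19 were the highest and Rps2 and Rpl11 the lowest without it. The capitals mark the first 5 transcribed bases, written 5′ to 3′ on the gene's strand.
Rpl35: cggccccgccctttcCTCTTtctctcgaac
Rpl28: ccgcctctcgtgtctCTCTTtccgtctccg
Rpl14: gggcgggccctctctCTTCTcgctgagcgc
Rps9: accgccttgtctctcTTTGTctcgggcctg
Rps19: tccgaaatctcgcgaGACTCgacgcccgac
Rps2: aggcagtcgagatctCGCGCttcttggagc
Rpl11: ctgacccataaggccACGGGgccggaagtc
Rpl35 lies at chr2:39005117-39005146 on the minus strand, Rpl28 at chr7:4792950-4792979 on the plus strand, and Rpl14 at chr9:120571502-120571531 on the plus strand. Rps9 lies at chr7:3704026-3704055, Rps19 at chr7:24884577-24884606 and Rps2 at chr17:24720048-24720077, all on the plus strand. Rpl11 lies at chr4:136053379-136053408 on the minus strand.

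A start was counted as a match when its first base was C and the next 4 bases were each C or T, on the gene's strand only. Of 57 ribosomal protein members with a RefSeq start window, 13 matched in at least 1 window, or 22.8%. Over all 1555 members with a window the share was 3.28%, and over all 27025 genes with a window in RefSeq 3.01%. Rpl35 and Rpl28 matched and had ratios of 1.35 and 0.84, while Rpl14 matched at -1.52. Rps9, Rps19, Rps2 and Rpl11 did not match at the window shown, with ratios from -2.18 to 1.77. The median ratio was 0.99 in the 13 with a match and 0.08 in the 44 without. Under the read minimum these medians were 0.38 (6 genes) and -0.47 (27 genes). The 38 matching members outside the ribosomal proteins had a median of -0.09, with 2 higher and 4 lower. Over all members with a window, the medians were 0.21 in the 51 with a match and 0.02 in the 1504 without. Annotated starts can miss the true start by a few bases, so a window without a match says only that these letters are not at that place.

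mRNAs known for regulatory upstream reading frames, which hold back translation of the main frame, had a low median of -1.09. Of 20 such genes 9 were members, 0 were higher and 2 lower. Bace1, the beta-secretase, had 8.56 and 8.95 RPKM in footprints and 112 and 192 RPKM in mRNA, a ratio of -4.76 (SE 0.74, limma adjusted p = 0.023). Ddit3, the stress transcription factor CHOP, had 5.01 and 11.3 RPKM in footprints and 90.7 and 140.1 RPKM in mRNA, a ratio of -4.61 (SE 0.79, limma adjusted p = 0.028), from 5 reads in footprints 2. In both genes footprints lay far below mRNA. Both loci overlap another gene, as described below. With such members left out, the list had 7 genes, a median of -0.96 and 0 called. Odc1, the first enzyme of polyamine synthesis, had 65.9 and 26.4 RPKM in footprints and 105 and 51.2 RPKM in mRNA, a ratio of -1.52 that did not pass (limma adjusted p = 0.21).

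Other members of this list stood nearer to the median gene. Cebpb was at -1.09, Ibtk at -1.24, Ifrd1 at -0.82, Ppp1r15b, the paralog of the deleted gene, at -0.46 and Eprs at 0.66, and none passed. Atf4, the best known mRNA of this kind and a transcription factor that drives the integrated stress response, stood above the median gene. It had 51.5 and 91.4 RPKM in footprints and 38.6 and 13.5 RPKM in mRNA, a ratio of 0.89 (SE 0.67, limma adjusted p = 0.41), from 2 reads in mRNA 2. Its values were apart after centring, but the ratio did not pass. Of tail-anchored membrane proteins, which enter the ER after translation, 3 of 31 with footprints were members, with a median of -1.31 and 0 called. Few members were also left among immediate early and short-lived mRNAs (7 genes, median 0.35), ferritin, transferrin receptor and polyamine genes (4 genes, -0.78) and mitochondrial ribosomal proteins (2 genes, -0.84), with 0 called in each, and 0 of the long noncoding RNAs were members.

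The genes with the lowest ratios differed in footprint level, and some lay above the median of 27.3 RPKM for members. LOC674595, described in the table as a predicted heterogeneous nuclear ribonucleoprotein, had 67.7 and 63.5 RPKM in footprints and 4136 and 27888 RPKM in mRNA, a ratio of -8.06 (SE 1.25, limma adjusted p = 0.023). LOC101056029, described as similar to a protein of the large ribosomal subunit, had 231 and 304 RPKM in footprints and 9487 and 4583 RPKM in mRNA, a ratio of -5.33. Both names stand for predicted loci that resemble other genes, so their reads are uncertain. Zfp277, a zinc finger gene, had the lowest ratio of all, -8.51, with 5.57 and 5.21 RPKM in footprints and 1865 and 785 RPKM in mRNA, but only 8 reads in footprints 2, and is named because it is that extreme.

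Exosc9, a subunit of the RNA exosome, had 18.6 and 19.9 RPKM in footprints and 656 and 614 RPKM in mRNA, a ratio of -5.74 (SE 0.68, limma adjusted p = 0.014). Its libraries agreed closely within each assay and lay far apart between them. Sco2, a copper chaperone for cytochrome c oxidase, had 36.2 and 56.5 RPKM in footprints and 904 and 1460 RPKM in mRNA, a ratio of -5.37. Pigf, an enzyme subunit of the synthesis of GPI anchors, had 14.7 and 19.1 RPKM in footprints and 491 and 290 RPKM in mRNA, a ratio of -5.20 (SE 0.65, limma adjusted p = 0.014). Neither gene had overlapping values.

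Basp1, a protein anchored to the inside of the cell membrane, stood at -5.35, with 59.7 and 65.5 RPKM in footprints and 738 and 3356 RPKM in mRNA. Acat3 and Acat2, near-identical acetyl-CoA acetyltransferase genes whose reads may be shared, stood at -5.83 and -5.22. Acat2 had 15.5 and 21.05 RPKM in footprints and 195 and 879 RPKM in mRNA. The RNA helicase Ddx49 (-5.19), the selenoprotein gene 1300018J18Rik, named Selenoo in RefSeq (-4.86), and the splicing factor Prpf38b (-4.55) complete, with Bace1, the 12 lowest genes with at least 10 reads in each library. In all 12 the footprint values lay below the mRNA values.

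**Figure D3:**
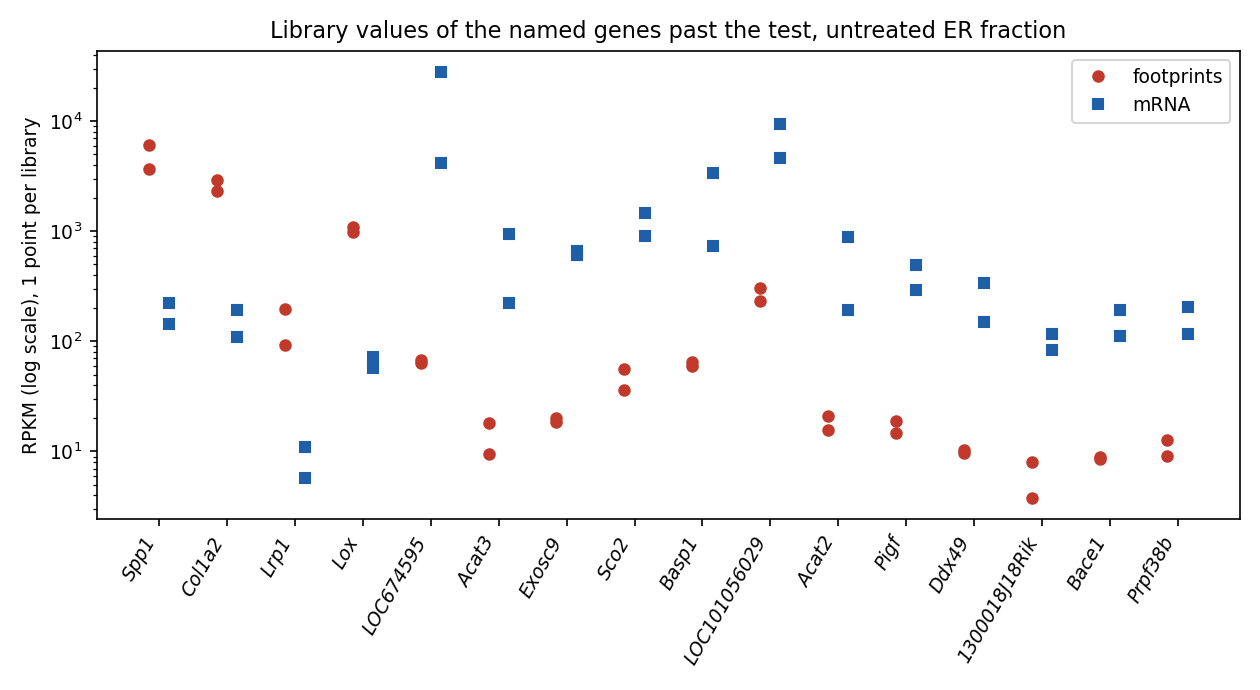
Each column is 1 of the 16 genes that passed the test with at least 10 reads in each library, and the y axis gives RPKM on a log scale. Circles are the 2 footprint libraries and squares the 2 mRNA libraries; in the 4 genes from Spp1 to Lox the circles lie above the squares, and in the other 12 below them.

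Some low-ratio genes shared a feature of position. By RefSeq gene spans (GRCm38.p6, introns included), 2036 members could be matched, and 482 of these, 23.7%, overlap another protein-coding gene. The share was 16.7% in genes called higher (6 of 36), 58.6% in genes called lower (58 of 99) and 21.99% in genes not called (418 of 1901). Under the read minimum it was 0 of 4, 14 of 21, or 66.7%, and 48 of 215, or 22.3%. This property was looked up after the values were seen, and no test was made of it. The median ratio was -0.57 in overlapping and 0.20 in other members. It was also lower in overlapping members of the highest tercile of mRNA level, at -1.05 against 0.25.

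Most of the low genes named above lie in such places. Sco2 overlaps Ncaph2 and Tymp, Exosc9 overlaps Ccna2, Pigf overlaps Rhoq, Ddx49 overlaps Homer3, Bace1 overlaps Rnf214, Acat3 overlaps Tcp1, and 1300018J18Rik overlaps Tubgcp6. Ddit3 overlaps Mbd6 and Mars1. Spp1, Col1a2, Lrp1 and Lox overlap none. Where the strand of both genes is known, 37 of the genes called lower overlap a gene on the opposite strand and 3 one on the same strand, against 324 and 24 over all members, so opposite partners prevail in both. The footprint libraries were made with a directional kit per the labels, which do not say whether the mRNA kit kept the strand. Reads of an overlapping partner can then not be told apart from those of the gene itself. In mRNA 1 and 2, Ccna2 had 27.7 and 5.59 RPKM, Ncaph2 10.3 and 7.76, Tubgcp6 4.07 and 2.67, and Rnf214 17.5 and 3.53. Homer3 had 30.3 and 112.6 RPKM and Tcp1 205 and 306 RPKM, while Rhoq was listed in neither. Each listed value lay below that of the low gene it overlaps in the same library. The part of partner reads in the low ratios was not tested.

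With the 482 overlapping members left out, limma called 0 genes higher and 7 lower among 1683, and 453 genes had an unadjusted p under 0.05. The 7 were Zfp277 at -8.65, Inpp5f at -6.90, Cir1 at -5.37, Cenpb at -5.03, Zfp422 at -4.98, Prpf38b at -4.70 and 9030025P20Rik at -4.12. Spp1, Col1a2, Lrp1 and Lox lost their calls there, Spp1 with a limma adjusted p of 0.071. All ratios moved by -0.14 there, since the median gene moved.

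**Figure D4:**
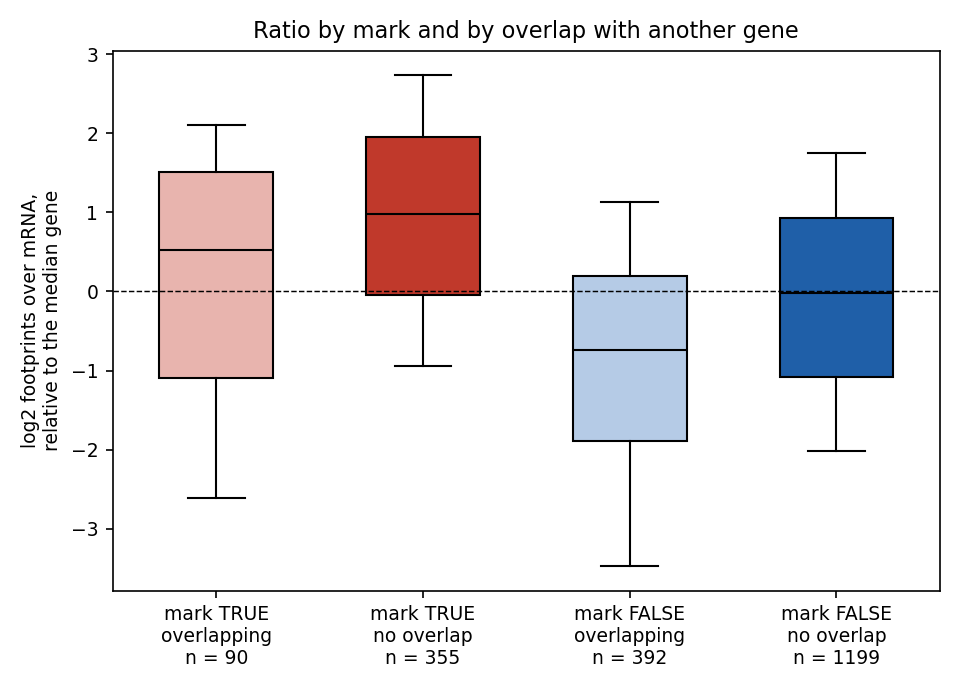
Boxes give the quartiles and median of the log2 ratio of footprints to mRNA relative to the median gene, with whiskers at the 10th and 90th percentiles, by the mark of the deposited table and by overlap with another protein-coding gene. Medians are 0.53 and 0.97 for mark TRUE with and without overlap, and -0.74 and -0.02 for mark FALSE.

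An unnamed column of the table marks genes TRUE or FALSE, and its meaning is not given in the sources used here. TRUE stands at 48 of the 50 genes for matrix and secreted proteins, at each of the 48 receptors and at each of the 38 chaperones of the ER, and at 0 of the ribosomal, glycolytic and cytoskeletal genes. Among members, 453 were TRUE, with a median ratio of 0.87, 27 higher and 14 lower. The 1712 FALSE members had a median of -0.20, 10 higher and 89 lower. These counts come from groups of unlike size, and over all members 1.71% were higher and 4.76% lower. The order was the same in each tercile of coding length, with medians of 0.84, 0.93 and 0.86 in TRUE and -0.11, -0.24 and -0.25 in FALSE members from short to long. It was also the same in each tercile of mRNA level. TRUE members outside the 7 lists of secretory proteins stood lower, with a median of 0.41 in 330 genes, than the 123 inside them, with 1.74.

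Length and mRNA level themselves went with little of the spread over all members, but the calls differed by mRNA level. Across 2165 genes, Pearson's r of the ratio was -0.02 with log2 coding length and -0.12 with log2 mean mRNA, against 0.61 with log2 mean footprints. The ratio contains both levels, so its correlations with mean mRNA and with mean footprints are in part built in. Calls split by mRNA level share this limit. Over the 274 genes with at least 10 reads in each library, r with log2 mean mRNA was -0.28. From the lowest to the highest tercile of mRNA level (722, 721 and 722 genes), 12, 30 and 61 genes were called lower and 17, 12 and 8 higher. Over all members 4.76% were called lower and 1.71% higher. Among members whose locus overlaps another gene (148, 178 and 156), the lower calls were 1, 16 and 41. Among those without overlap (566, 521 and 467), they were 11, 14 and 16.

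The next comparison set the ER ratio against the cytosol ratio of the same untreated cells, over the 1473 genes listed in all 8 libraries. No gene passed the limma interaction test (0.0% called, smallest adjusted p = 0.999). An unadjusted p under 0.05 was found in 39 genes, 2.65%, 15 of them higher in the ER. The median standard error of the difference was 1.01 on the log2 scale, so only large differences could have passed. Across these genes ER and cytosol ratios had a Pearson's r of 0.77, and 0.82 over 241 genes with at least 10 reads in each ER library. The protocol extracts both fractions in turn, but whether same-numbered fractions come from 1 dish is not given in the labels. The test took all 8 libraries as independent. Replicate deviations of ER and cytosol mRNA had a correlation of 0.62, and a test that pairs the fractions was not run. The lack of calls therefore does not show that the fractions had equal ratios.

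By mark, the fractions nevertheless ranked differently. Of 453 TRUE members, 97 were listed in all 8 libraries, against 1376 of 1712 FALSE members. Most TRUE members are thus left out here. The 97 TRUE genes had a median ratio of 0.89 in the ER and -0.50 in the cytosol, and 78 of them were higher in the ER. The 1376 FALSE genes had medians of -0.05 in the ER and 0.03 in the cytosol, and 658 were higher in the ER. Matrix and secreted proteins had medians of 2.75 in the ER and 0.26 in the cytosol (19 of 41 members). ER chaperones had 1.498 in the ER and -1.32 in the cytosol (7 of 29 members). The translocation and glycosylation machinery had -0.25 in the ER and -0.31 in the cytosol (5 genes), and vesicle coat proteins and cargo receptors 0.91 in the ER and 0.88 in the cytosol (9 genes). Glycolytic enzymes had 1.81 and 1.89 (11 genes) and ribosomal proteins 0.36 and 0.29 (76 genes) in the ER and the cytosol. These are medians over genes, with no test.

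Lox had a ratio of 3.34 in the ER and 0.26 in the cytosol, and Lrp1 3.43 in the ER and 0.65 in the cytosol. Among the low genes named above, LOC674595 had -8.02 in the ER and -8.05 in the cytosol, and Basp1 -5.32 in both. The others with values in all 8 libraries were lower in the ER without passing: LOC101056029 had -5.30 in the ER and -4.03 in the cytosol, Exosc9 -5.71 in the ER and -4.60 in the cytosol, and Ddx49 -5.16 in the ER and -4.16 in the cytosol. The differences were -0.71 for Acat3, -0.73 for Acat2 and -0.64 for Prpf38b. They came to 3.11 (SE 1.26) for Lox, 2.81 (SE 1.57) for Lrp1, 0.06 for LOC674595 and 0.03 for Basp1, and none of them passed.

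**Figure D5:**
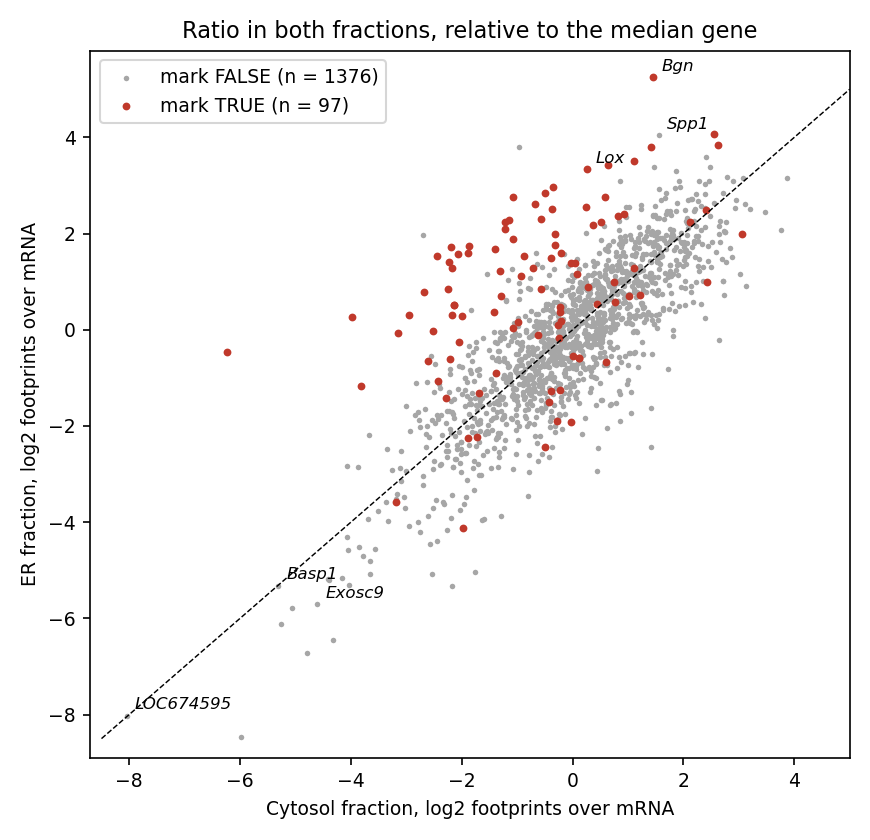
Each point is 1 of 1473 genes listed in all 8 untreated libraries, with the log2 ratio of footprints to mRNA relative to the median gene in the cytosol on the x axis and in the ER on the y axis. Large points are the 97 genes marked TRUE, many of them above the dashed line of equal ratios, and small points the 1376 marked FALSE, which lie along it.

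The ER ratio could also be formed from separate libraries of cells treated with thapsigargin. These values describe how far the order of genes recurs, and no change was tested. Pearson's r with the untreated ratio was 0.65 at 1 h (1329 genes), 0.67 at 2 h (1101) and 0.68 at 4 h (903). At 0.5 h the footprints had 1 library with values, and no ratio was formed. Over the 679 genes listed at every time, each time centred on its median gene, matrix and secreted proteins (31 genes) had medians of 1.70 untreated and 1.15, 0.94 and 0.63 at 1, 2 and 4 h. Receptors (11 genes) had 1.56, 0.77, -0.11 and -0.04. Ribosomal proteins (66 genes) stayed between -0.41 and -0.38 and cytoskeletal proteins (31 genes) between 0.76 and 0.85.

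Spp1 and LOC674595 had values of like size at each time, while Lrp1 and Atf4 did not. Spp1 stood at 3.38 untreated and at 4.32, 3.29 and 4.32 after 1, 2 and 4 h, and LOC674595 at -8.69, -7.46, -8.46 and -7.97. Lrp1 stood at 2.76, 0.35, -0.11 and -0.62 at the same times. Atf4 had 0.26 untreated and 3.76, 5.15 and 4.68 after 1, 2 and 4 h.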

How the data were processed

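The authors deposited 1 table of RPKM values for 39 libraries, with 4 header lines that give no unit; that the values are RPKM was read from the values and not stated there. Per the submitters' processing notes, Bowtie was used and the build named is hg19, although the genes are mouse; no version is given, and no coordinates of the deposited table are printed. A column of TRUE and FALSE marks has no header and serves only to group genes. Whole reads were recovered from the RPKM for all 13206 genes listed in at least 2 libraries, whole within 2e-05 reads plus a share of 1e-09. The length behind the values is a coding length. The constant of each library cancels in the centring.

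Log2 RPKM, with a pseudocount of 0, was centred on the median member in each library. The difference of footprints and mRNA was tested with limma 3.58.1 in R 4.3.3, 2 residual degrees of freedom, two-sided, with Benjamini-Hochberg adjustment over all genes at a threshold of 0.05; the fraction test used an interaction over 8 libraries. SE is the standard error from limma. The fits were also run on simulated data, and the outcome is not given here. Tables were made with Python 3.11.15 and pandas 2.3.3. Intervals from counting are not given, and read numbers above describe depth only.

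Named genes are up to 12 per direction that passed with at least 10 reads in each library, and for each list the 2 highest and 2 lowest with that minimum; only 4 genes met it in the higher direction. Genes named outside this rule were chosen after their values were seen. The members and lists were chosen with earlier results of these data known. Alternatives tried were a pseudocount, minimum levels and reads, another centring, a replicate block, identical loci left out, robust variances, each library left out, all ER libraries in the fit and unlisted values read as 0. Leaving out overlapping loci was added after seeing the data. Hydrophobic stretches of the proteins were planned and are not analysed here. A gene that counts among the matrix genes called higher is not reported here by name.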

Additional observations from a re-analysis of the deposited data

How the results depend on the processing

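The 140 calls of the ER ratio stayed within 1.5 times under a pseudocount of 1 RPKM (161), a mean of at least 1 RPKM (138), trimmed mean centring (113), robust variances (113) and identical loci left out (143). The fit limited to the 274 genes with at least 10 reads in each library made 58 calls, 28 of them among the 140. There were 214 when all ER libraries shared the spread, 1333 among 9592 genes when blanks were read as 0 (91 of them among the 140), and 7 without overlapping loci, an alternative added after seeing the data. Leaving out 1 library gave 21 to 1132 calls.

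With the replicate block there were 432 calls, the 140 among them, and Col1a1 (limma adjusted p = 0.0018), Eno1 (0.032), Psmd7 (0.037) and Ldha (0.043) then passed. Deviations of same-numbered ER footprints and mRNA had a correlation of 0.23 over 2165 genes and 0.17 over 274. Over 1473 genes, same-numbered groups of the 8 libraries had 0.17 to 0.62, the highest between ER and cytosol mRNA. Over the 187 of these genes with at least 10 reads in each library, ER and cytosol mRNA had 0.83. The other pairs had 0.10 to 0.40 there. With only 2 numbers, and no label that ties them, this does not establish pairing, so the fit without the block was used. The ER minus cytosol test with the block gave 0 calls and 59 genes at an unadjusted p under 0.05. That block is a replicate shift per gene shared by all groups, so it does not model a link of ER and cytosol mRNA alone.

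The ER minus cytosol test gave 0 calls under every alternative run, with 3 to 142 genes at an unadjusted p under 0.05. Without 1 mRNA library, 10 of 59 named ratios changed sign, among them Igfbp7 (-2.56 to 2.53), Canx (-1.32 to 2.05), Hsp90ab1 (-1.57 to 1.49), Hsp90b1 (-1.004 to 1.96), Itgb1 (-0.69 to 3.29) and Os9 (-1.01 to 0.71). Of 25 lists, 10 had a median that changed sign under some alternative: ribosomal proteins (-0.52 to 0.91), proteasome subunits (-1.37 to 1.05), chaperonin and heat shock proteins (-0.38 to 1.09), splicing factors (-0.52 to 1.01), cholesterol and fatty acid synthesis (-0.71 to 2.31), tail-anchored proteins (-1.66 to 2.14), ER-associated degradation (-0.26 to 1.11), and the short-lived, ferritin and polyamine, and mitochondrial ribosomal lists. Matrix and secreted proteins ran from 1.31 to 2.72 and ER chaperones from 0.54 to 1.83. The cause of these shifts was not tested. Depth limits the mRNA side most, where 1 read in mRNA 2 stands behind 597 members.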

Other observations

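Genes with footprints but no mRNA value included H2afx, the histone variant that marks broken DNA, with 395 and 487 RPKM in footprints 1 and 2. The mRNA loci at the top had no listed footprints: C330021F23Rik had 58781 and 116558 RPKM, LOC101055971 51720 and 173725 RPKM, and Gm5148 44849 and 92816 RPKM in mRNA 1 and 2. Hspa5, the main chaperone of the ER, had 770.4 and 1077 RPKM in footprints and 402 and 25.2 RPKM in mRNA, a ratio of 2.48 that did not pass (limma adjusted p = 0.21). Rrbp1, a ribosome-binding protein of the ER membrane, had 58.5 and 48.8 RPKM in footprints and 713 and 229 RPKM in mRNA, a ratio of -3.62.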
